A study of Mus musculus with 6 samples.

Results

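The genes described are 9 enzymes that act between retinol, retinaldehyde and retinoic acid (RA): *Rdh10*, *Rdh11*, *Rdh13*, *Rdh14*, *Adh5*, *Dhrs3*, *Aldh1a1*, *Aldh1a2* and *Aldh1a3*. They were chosen by gene symbol for this role, and each symbol named 1 of the 26437 genes in the deposited table. RNA was sequenced from the frontal region of the mouse head at E10, which holds the optic vesicles, the frontonasal region and some forebrain. Wild-type embryos were compared with embryos homozygous for an *Rdh10* null allele (*Rdh10* KO), which came from matings of heterozygous parents, and the strain was an outbred mixture of C57BL/6 and Black Swiss. Each genotype had 3 libraries made from pools of 3 embryos (9 embryos per genotype), and values of single embryos are averaged within a pool. The comparison asks how RNA for the enzymes of RA synthesis differs in eye and facial tissue that lacks *Rdh10*.

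Retinol is oxidized to retinaldehyde by retinol dehydrogenases, a reversible step, and retinaldehyde is then oxidized to RA by the retinaldehyde dehydrogenases of the ALDH1A family, a step that is not reversible. RDH10 is the retinol dehydrogenase on which most RA synthesis in the early embryo depends, while DHRS3 works in the opposite direction and returns retinaldehyde to retinol. In the developing mouse eye, *Aldh1a1* is known as a gene of the dorsal retina, *Aldh1a3* of the ventral retina and the pigment epithelium, and *Aldh1a2* of mesenchyme near the optic vesicle at early stages.

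Values are given as normalized counts, which are reads on a gene divided by 1 factor for the library. The libraries held 17626842 to 20808237 reads on genes in wild-type and 16392777 to 27101025 in *Rdh10* KO, and 3 reads corresponded to 2.15 to 3.53 normalized counts. The tissue was not sorted, so fewer cells of a type and less RNA per cell cannot be told apart in any of these values. *Rdh10* KO replicate 1 stood apart from the other *Rdh10* KO libraries in depth and in the sums over blood and forebrain genes. It had the most reads, and its 7 genes of embryonic blood summed to 50539.6 normalized counts, against 118883 and 154960.0 in *Rdh10* KO replicates 2 and 3 and 99651 to 133976 in wild-type. The sum over 7 forebrain genes was 5327 in this library, below 7022 and 6978 in the other *Rdh10* KO libraries and below the wild-type range of 5686 to 6320.3. Fold changes of the 9 enzymes are therefore given with and without it.

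*Rdh10* (ENSMUSG00000025921.7, chr1:16105774-16133734, plus strand, GRCm38), the targeted gene, was read at 399, 342 and 381 normalized counts in wild-type replicates 1 to 3. Its values were 183, 142 and 181 in *Rdh10* KO replicates 1 to 3. All 3 *Rdh10* KO libraries lay below all 3 wild-type libraries, in the direction of their labels, and the reads that remained came to 133 or more in every library. On average 45.1% of the wild-type value remained, and the log2 fold change was −1.16 (SE 0.13, limma adjusted p = 7.35e-05 over 22921 genes). An exact two-sided permutation test gave p = 0.1, the smallest value that 3 libraries against 3 allow. The part of the gene that the null allele lacks is not given in the sources used here, so these reads cannot be assigned to the deleted or the retained part.

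*Rdh11*, *Rdh13*, *Rdh14* and *Adh5* differed less between the groups than *Rdh10*. *Rdh11* (ENSMUSG00000066441.14, chr12:79174337-79192293, minus strand), a short-chain dehydrogenase that acts on retinal substrates with a preference for reduction, had 593, 639 and 606 normalized counts in wild-type and 789.8, 721 and 625 in *Rdh10* KO. The groups overlapped because *Rdh10* KO replicate 3 lay below wild-type replicate 2, while the 2 other *Rdh10* KO libraries were above every wild-type library. The log2 fold change of 0.21 (SE 0.10) did not pass the threshold (limma adjusted p = 0.167), and it did pass without *Rdh10* KO replicate 3 (log2 fold change 0.30, limma adjusted p = 0.0426, within a range of 0.0426 to 0.470 over 17 alternatives).

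*Rdh13* (ENSMUSG00000008435.15, chr7:4424770-4445649, minus strand), a related enzyme of mitochondria, had 762, 835 and 883 normalized counts in wild-type and 824, 792 and 641 in *Rdh10* KO. *Rdh10* KO replicate 3 was the lowest library, and the others lay among the wild-type values. For *Rdh14* (ENSMUSG00000020621.5, chr12:10390772-10395562, plus strand), another short-chain retinol dehydrogenase, the counts were 207, 187 and 192 in wild-type and 175, 213 and 198 in *Rdh10* KO. The lowest and the highest *Rdh14* value both belonged to *Rdh10* KO, and both group means were 195. Differences of −0.14 (*Rdh13*) and −0.003 (*Rdh14*) on the log2 scale had limma adjusted p-values of 0.395 and 0.991, and the sign of the *Rdh14* difference changed in both edgeR tests and without wild-type replicate 1 or *Rdh10* KO replicate 1.

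*Adh5* (ENSMUSG00000028138.8, chr3:138443093-138455499, plus strand), a broadly expressed alcohol dehydrogenase known mainly for clearing formaldehyde, had 5411, 5170.1 and 5779.9 normalized counts in wild-type and 4624, 4984 and 4931 in *Rdh10* KO. Every *Rdh10* KO value was below every wild-type value, but the gap between the nearest libraries was smaller than the range within either group. The *Rdh10* KO mean was 88.9% of wild-type, with a log2 fold change of −0.17 (SE 0.07) that did not pass the threshold (limma adjusted p = 0.0991; exact permutation p = 0.1). Only median scaling, among 17 alternatives, took it past (limma adjusted p = 0.0180, with a range of 0.0180 to 0.301 over all of them).

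*Dhrs3* (ENSMUSG00000066026.14, chr4:144892827-144928209, plus strand), the retinaldehyde reductase, had 108, 112 and 97.8 normalized counts in wild-type. In *Rdh10* KO the values were 56.6, 30.9 and 77.65. The 3 wild-type libraries lay close together, the *Rdh10* KO libraries were all lower, and the highest of them was 2.51 times the lowest. The mean fell to 51.8% of wild-type. The log2 fold change, which is a difference between means of log2 values, was −1.04 (SE 0.28, limma adjusted p = 0.0186, exact permutation p = 0.1). The call was lost in 4 of 6 fits that left out 1 library. Without *Rdh10* KO replicate 2, the lowest library, the log2 fold change was −0.68 and the limma adjusted p 0.0527. Without wild-type replicate 1, 2 or 3 the log2 fold change stayed near its size with all libraries (−1.03, −1.0005 and −1.10), and the limma adjusted p was 0.0761, 0.0911 and 0.0557. The count tests on whole reads gave adjusted p-values of 0.00533 (edgeR quasi-likelihood), 0.00192 (edgeR likelihood ratio) and 0.00669 (DESeq2), and limma without its intensity trend gave 0.167.

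RefSeq start-site windows (GRCm38.p6) were at hand for 6 of the 9 genes, 11 windows in all, and not for *Rdh10*, *Rdh13* and *Aldh1a3*. Of each window the 250 bases before the start were read. The window of *Dhrs3* that ends 1 base before the annotated gene, chr4:144892577-144892826 on the plus strand, is shown because *Dhrs3* fell together with *Rdh10* and *Aldh1a1*. Capitals, here and in the windows of *Aldh1a1* and *Aldh1a2*, mark CCAAT in either orientation and a word shared by the latter 2 windows. The *Dhrs3* windows chr4:144892827-144893076 and chr4:144892887-144893136, inside the annotated gene, hold CCAAT. The *Dhrs3* window shown here holds neither CCAAT nor the shared word.
Dhrs3: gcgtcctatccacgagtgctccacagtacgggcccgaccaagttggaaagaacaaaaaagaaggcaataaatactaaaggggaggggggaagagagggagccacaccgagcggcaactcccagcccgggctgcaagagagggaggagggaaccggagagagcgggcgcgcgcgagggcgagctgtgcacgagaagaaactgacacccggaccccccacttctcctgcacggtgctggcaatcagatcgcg
RA receptors bind pairs of hexamers, so the windows were searched on both strands for AGGTCA and AGTTCA, and GGGTCA and GGTTCA, and for direct repeats of any pair of them with 1, 2 or 5 bases between. No direct repeat was found in the 11 windows, against 0.164%, 0.174% and 0.0883% of all 32851 windows for these spacings. Single hexamers were found in 3 of the 11 windows, for *Aldh1a1* and *Rdh11*, and in 38.6% of all windows. No match says only that these letters are not in this window.

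*Aldh1a1* (ENSMUSG00000053279.6, chr19:20492715-20643465, plus strand) was at 378, 425 and 409 normalized counts in wild-type replicates 1 to 3. The corresponding *Rdh10* KO values were 150.4, 169.6 and 129. All *Rdh10* KO libraries were far below the lowest wild-type library, and the spread within each group was small beside that distance. The means were 404 ± 24.2 and 149.8 ± 20.1 (SD, n = 3 each), which puts *Rdh10* KO at 37.1% of wild-type. With a log2 fold change of −1.44 (SE 0.13, limma adjusted p = 1.11e-05; exact permutation p = 0.1), it was the lowest of the 9 genes, and it lay between −1.53 and −1.34 with each library left out in turn. Of the 50-base words of its transcripts, 3.06% also occur in transcripts of *Aldh1a7*, a neighbouring family member. *Aldh1a7* itself had 213, 219 and 239.8 normalized counts in wild-type and 181, 243 and 172 in *Rdh10* KO, so that its groups overlapped. The sum of both genes, which does not depend on how shared reads were divided, was 590.3, 644 and 649 in wild-type and 332, 413 and 301 in *Rdh10* KO, and here too all *Rdh10* KO libraries were lower.

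*Aldh1a2* (ENSMUSG00000013584.5, chr9:71215789-71296243, plus strand) was the scarcest of the 9 genes, with 18 to 51 reads in a library. Its normalized counts were 27.6, 20.03 and 32.9 in wild-type and 36.5, 29.9 and 56.5 in *Rdh10* KO. *Rdh10* KO replicates 1 and 3 were above every wild-type library and replicate 2 lay among them. The log2 fold change of 0.58 (SE 0.34) did not pass the threshold (limma adjusted p = 0.267; exact permutation p = 0.2), and it ran from 0.33 to 0.79 with each library left out in turn.

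*Aldh1a3* (ENSMUSG00000015134.15, chr7:66390890-66427517, minus strand) had 2825, 2771 and 3162 normalized counts in wild-type, and 2895, 2931 and 2407 in *Rdh10* KO. *Rdh10* KO replicates 1 and 2 lay inside the wild-type range and replicate 3 below it. The mean of *Rdh10* KO was at 94.0% of wild-type, and the log2 fold change was −0.09 (SE 0.09, limma adjusted p = 0.522; exact permutation p = 0.6). Without *Rdh10* KO replicate 3 the difference was −0.001, and with each other library left out it stayed between −0.14 and −0.03.

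**Figure D1:**
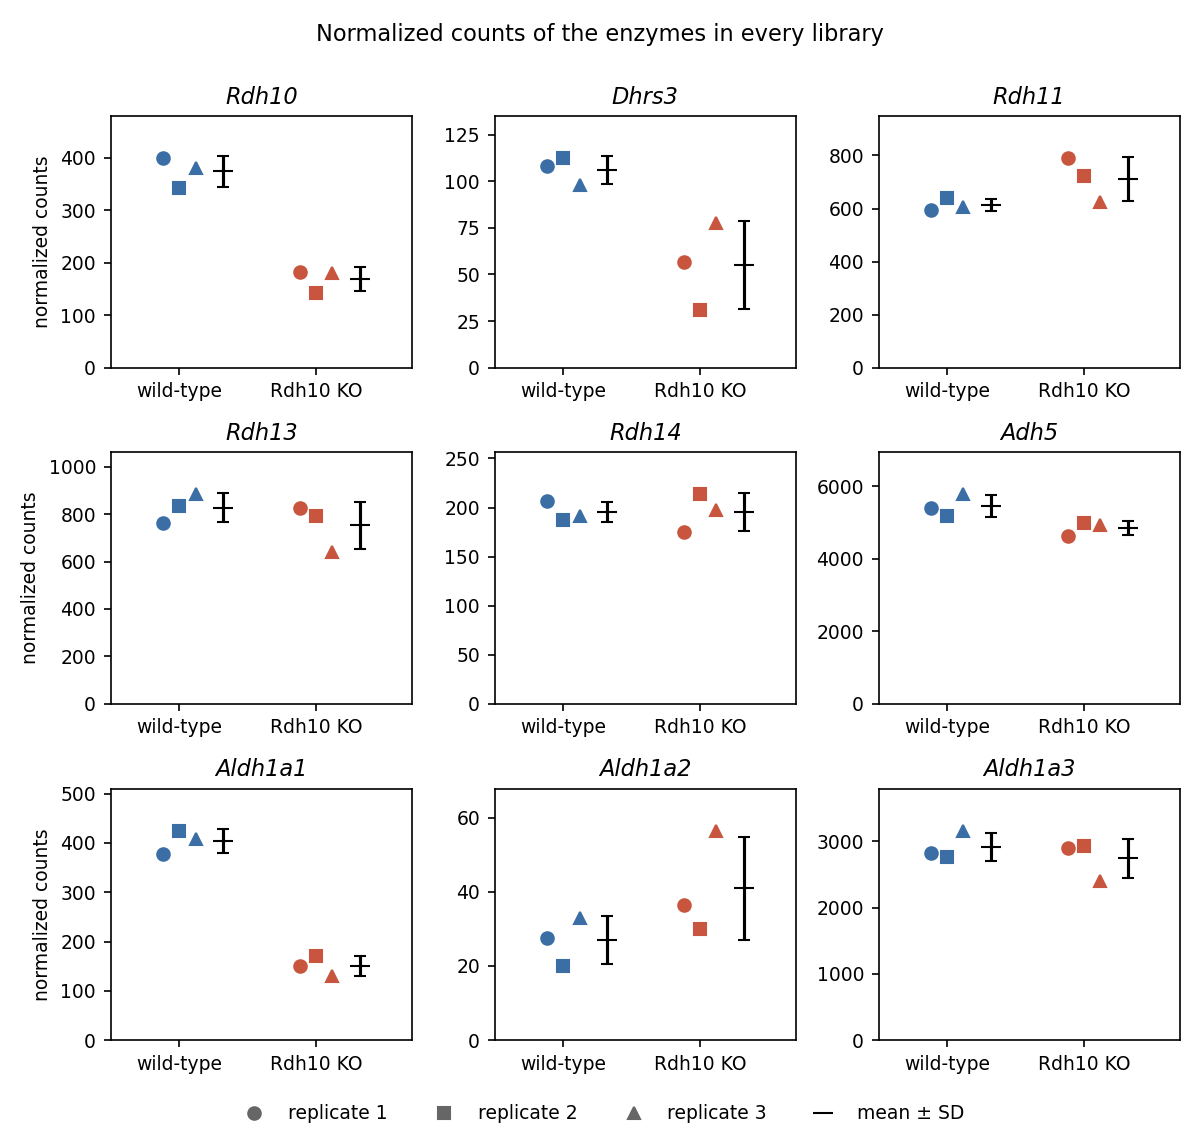
Normalized counts of the 9 enzymes in each library, in wild-type (blue) and *Rdh10* KO (red), with 1 symbol for each replicate number and the mean and SD (n = 3) beside them; each axis starts at 0. *Rdh10* and *Aldh1a1* are lower in every *Rdh10* KO library by a gap wider than the range within either group, *Dhrs3* and *Adh5* by a gap narrower than the *Rdh10* KO range, and the groups overlap for the other 5 genes.

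The upstream windows of *Aldh1a1* and *Aldh1a2* are shown because these members of 1 enzyme family had opposite signs of difference. *Aldh1a1* has 2 windows, and the one shown is chr19:20601718-20601967 on the plus strand. It lies inside the span of the annotated gene, 109003 bases from the start of its longest form, and 7 of its bases are in an annotated exon. That of *Aldh1a2*, chr9:71215539-71215788 on the plus strand, ends 1 base before the annotated gene and holds no exon base of it.
Aldh1a1: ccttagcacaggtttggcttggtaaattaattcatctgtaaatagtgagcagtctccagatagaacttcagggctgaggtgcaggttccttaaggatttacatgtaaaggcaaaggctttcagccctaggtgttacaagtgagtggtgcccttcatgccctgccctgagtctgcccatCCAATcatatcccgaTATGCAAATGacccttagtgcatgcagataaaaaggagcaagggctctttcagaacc
Aldh1a2: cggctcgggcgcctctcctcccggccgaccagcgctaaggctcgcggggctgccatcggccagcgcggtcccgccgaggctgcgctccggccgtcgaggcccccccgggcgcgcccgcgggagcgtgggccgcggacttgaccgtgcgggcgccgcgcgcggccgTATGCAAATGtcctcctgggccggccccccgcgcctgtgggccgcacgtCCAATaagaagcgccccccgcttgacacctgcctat
The longest word in both windows is TATGCAAATG, of 10 bases, which lies at −57 to −48 from the start in *Aldh1a1* and at −85 to −76 in *Aldh1a2*. It occurs, on either strand, in 53 of the 32851 windows (0.161%). Among 49 pairs of windows of different enzymes, the longest shared word had 7 to 18 bases (median 8), and 13 pairs shared one of 10 or more, so a word of this length is not particular to this pair. CCAAT is at −72 to −68 in *Aldh1a1* and at −36 to −32 in *Aldh1a2*, in 6 of the 11 windows of the enzymes and in 33.8% of all windows. The 2 *Dhrs3* windows with CCAAT overlap and have 1 such site in common, so the windows and their pairs are not independent. The other window of *Aldh1a1*, chr19:20492333-20492582, ends 133 bases before the annotated gene, holds neither CCAAT nor a hexamer of the RA receptor search, and shares no word longer than 8 bases with the window of *Aldh1a2*. A hexamer of that search lies at −49 to −44 of *Aldh1a1* on the minus strand and overlaps the end of the 10-base word. The windows differ in base composition, with 46.4% G or C and 1 CG dinucleotide in *Aldh1a1* against 77.6% and 40 in *Aldh1a2*, and the *Dhrs3* window has 61.6% and 19 (median of all windows 52.4%). A match is a description of letters and was not tested for binding.

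Levels of different genes were compared per length, as FPKM computed from the recovered reads and the combined exon length of each gene. In wild-type the level was 51.5 ± 2.95 FPKM for *Adh5* and 32.3 ± 2.36 for *Aldh1a3* (SD, n = 3 each). *Rdh11* (9.06), *Rdh14* (6.74) and *Rdh13* (6.40) followed, then *Rdh10* at 4.59 ± 0.370 and *Aldh1a1* at 4.18 ± 0.242, *Dhrs3* (1.85) and *Aldh1a2* (0.606 ± 0.147). Neighbours in this order had separate ranges over the wild-type libraries, except that *Rdh14* overlapped *Rdh13* and *Rdh10* overlapped *Aldh1a1*. The means stood in the same order in *Rdh10* KO, but there *Aldh1a1* (1.36 to 1.74 FPKM) also overlapped *Dhrs3* (0.535 to 1.38), and *Dhrs3* overlapped *Aldh1a2* (0.668 to 1.29). *Rdh10* itself ranged from 4.19 to 4.91 FPKM in wild-type and from 1.73 to 2.26 in *Rdh10* KO.

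**Figure D2:**
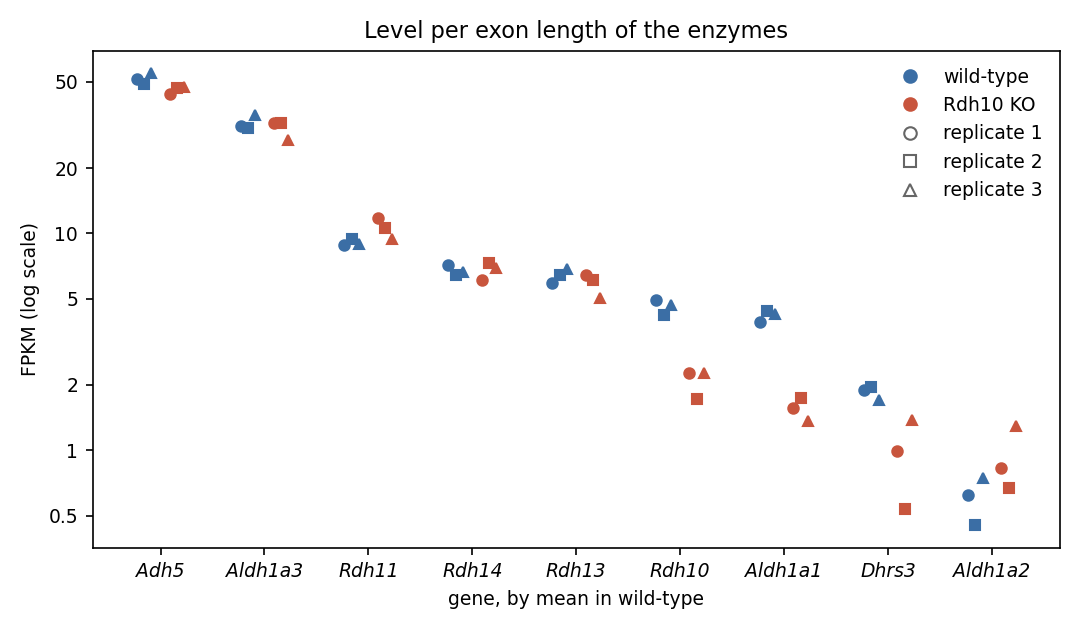
FPKM of the 9 enzymes in each library on a log axis, ordered by the wild-type mean, with wild-type in blue, *Rdh10* KO in red and 1 symbol for each replicate number. *Adh5* and *Aldh1a3* lie above 27 FPKM in every library, and *Dhrs3* and *Aldh1a2*, which are separate in wild-type, overlap in *Rdh10* KO.

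On the same per-length scale, the makeup of the ALDH1A family shifted. *Aldh1a1* made up 10.9%, 12.4% and 10.6% of the summed FPKM of *Aldh1a1*, *Aldh1a2* and *Aldh1a3* in wild-type, and 4.52%, 5.03% and 4.58% in *Rdh10* KO. The share of *Aldh1a3* was 87.3%, 86.3% and 87.6% in wild-type and 93.1%, 93.0% and 91.1% in *Rdh10* KO. *Aldh1a3* was thus the main ALDH1A transcript in every library, and its share was higher in each *Rdh10* KO library although its own level did not pass a test. *Aldh1a2* held 1.27% to 1.86% in wild-type and 1.93% to 4.36% in *Rdh10* KO. The sum of the 3 genes was 35.9, 35.4 and 40.0 FPKM in wild-type and 34.7, 34.6 and 29.7 in *Rdh10* KO, so that the *Rdh10* KO values were lower by a small gap; this sum over chosen genes was not tested. The ratio of *Aldh1a1* to *Aldh1a2* in FPKM was 6.27, 9.73 and 5.70 in wild-type and 1.89, 2.60 and 1.05 in *Rdh10* KO, without overlap (exact two-sided permutation test on log2 ratios, p = 0.1). By the same permutation test the ratio of *Aldh1a1* to *Aldh1a3* was also lower without overlap (p = 0.1). The groups overlapped for *Aldh1a2* to *Aldh1a3* (permutation p = 0.2) and for *Rdh10* to *Dhrs3* (permutation p = 0.8).

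Markers of the optic cup and vesicle and of endothelium were read in the same libraries. Of 6 dorsal optic cup genes, 1 (*Tbx2*) was lower at a limma adjusted p under 0.05, from 1053 ± 97.3 to 466 ± 97.1 normalized counts (SD, n = 3 each, limma adjusted p = 4.20e-05). The list summed to 6637, 6501 and 5975 in wild-type and 5841, 6362 and 6276 in *Rdh10* KO, with *Efnb2* the most abundant gene and none at 0. Of 5 ventral optic cup genes, 1 (*Vax2*) was lower, from 25.5 ± 6.72 to 6.12 ± 1.25 (SD, n = 3 each), and the list, led by *Ephb2*, summed to 3817, 3509 and 3661 in wild-type and 3680.4, 3836 and 4533 in *Rdh10* KO. Of 9 optic vesicle and retina genes, *Lhx2* was lower (1710.4 to 1038) and *Rax*, *Six3* and *Otx2*, the most abundant, were higher (195 to 317, 742 to 1063 and 2219.9 to 3214). For *Lhx2* the value was 632 in *Rdh10* KO replicate 1 and 1226 and 1257 in replicates 2 and 3, all below wild-type. *Rdh10* KO replicate 1 lay inside the wild-type range for *Rax* (203) and *Six3* (735), so that their groups overlapped, and the list summed to 6968, 6846 and 7152 in wild-type and 5987, 8589 and 8099 in *Rdh10* KO. Of 5 endothelium genes, *Kdr*, *Cdh5* and *Pecam1* were higher (873 to 1427, 682 to 889.7 and 409.7 to 719). The log2 fold change was 0.12 for *Tek* (limma adjusted p = 0.566) and −0.34 for *Cldn5* (limma adjusted p = 0.120), and the groups overlapped for both. The list summed to 2725, 3064 and 2576 in wild-type and 3899.5, 3735 and 3748 in *Rdh10* KO. By the same rule 9.12% of all genes tested were lower and 10.3% higher. The part of these shifts in the values of *Aldh1a1*, *Aldh1a2* and *Aldh1a3* was not tested.

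Over the 9 enzymes, 3 were lower at an adjusted p under 0.05, namely *Rdh10*, *Aldh1a1* and *Dhrs3*, where 9.12% of the 22921 genes tested were lower by that rule, and 13.4% of the 15272 with a mean above 10, as all 9 enzymes have. *Rdh10* is the targeted gene, and without it the lower enzymes were *Aldh1a1* and *Dhrs3*. All 3 genes also had a log2 fold change of more than 0.85 in size, which 0.886% of all genes tested met in that direction. None was higher by limma, against 10.3% of genes tested, or 2.41% with a log2 fold change beyond 0.85; at an unadjusted p under 0.05 limma and DESeq2 called 0 of the 9 higher, and edgeR's 2 tests called 1, *Rdh11*. For 4 of the 9 (*Rdh10*, *Aldh1a1*, *Dhrs3* and *Adh5*) all values of *Rdh10* KO were under all those of wild-type, and for 0 above; of all genes tested, 17.0% were separated downward and 17.6% upward. All 9 passed the filter on low values. The median log2 fold change was −0.14 over the 9 enzymes and 0.004 over all genes tested.

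Leaving out *Rdh10* KO replicate 1, the library that stood apart in blood and forebrain genes, gave log2 fold changes of −1.22 for *Rdh10*, −1.44 for *Aldh1a1* and −1.11 for *Dhrs3*, all with a limma adjusted p under 0.05 (0.000419, 0.000175 and 0.0418). The differences of the other enzymes were then 0.64 for *Aldh1a2*, 0.13 for *Rdh11*, 0.07 for *Rdh14*, −0.13 for *Aldh1a3*, −0.14 for *Adh5* and −0.21 for *Rdh13*, and none of these passed the threshold. Only the *Rdh14* difference changed its sign.

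**Figure D3:**
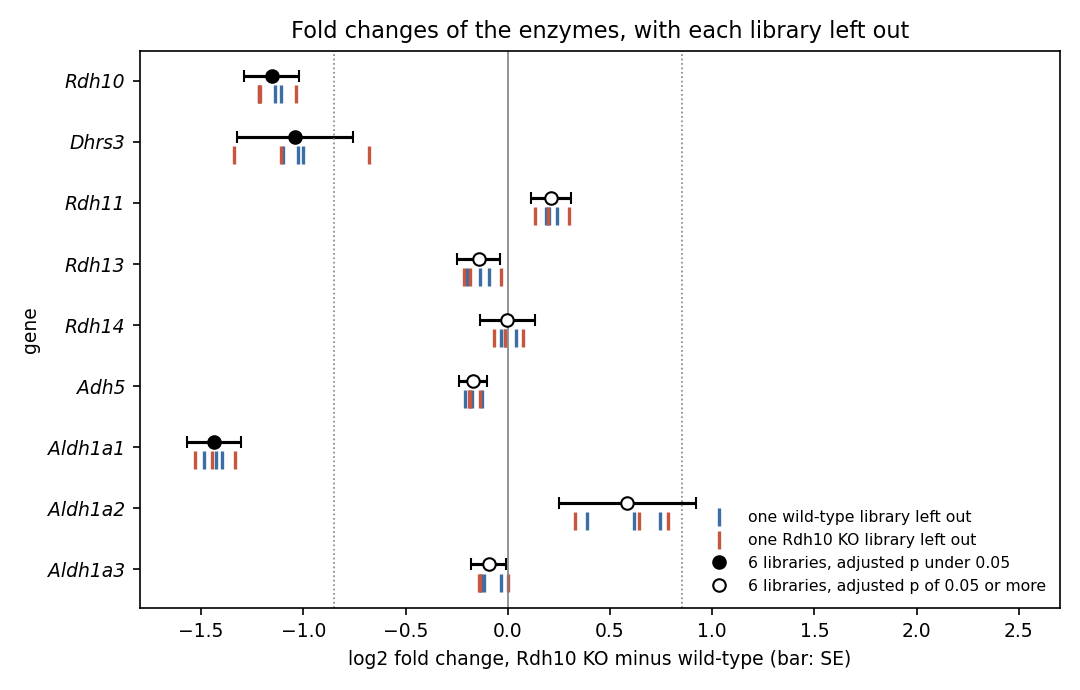
Log2 fold change of each enzyme, *Rdh10* KO minus wild-type, from all 6 libraries (circles with SE bars, filled at a limma adjusted p under 0.05) and with 1 wild-type (blue ticks) or 1 *Rdh10* KO (red ticks) library left out; dotted lines mark a size of 0.85 in both directions. The ticks of *Rdh10* and *Aldh1a1* all lie below −1.03, and 1 tick of *Dhrs3* reaches −0.68.

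Other genes of retinoid metabolism were read from 5 lists with 51 genes, of which 40 were tested; of all genes tested, 9.12% were lower and 10.3% higher by the same rule. Among other enzymes of retinol and retinaldehyde, 3 of 14 were lower: *Dhrs4* (815 to 513 normalized counts), *Akr1b3*, the most abundant of them (1398 to 964), and *Akr1b8* (175 to 77.9), where the last 2 are aldo-keto reductases. *Dgat1*, an acyltransferase, was the 1 lower gene of 6 for retinol storage and carotenoids (451 to 361) and the most abundant there; its limma adjusted p of 0.0444 was above 0.05 in 9 of 17 alternatives. Among genes of retinoid binding and transport, the cellular carriers *Crabp1* (11034 to 8250.4), *Crabp2* (8914 to 5791) and *Fabp5* (3737 to 2490) were lower, as was *Stra6*, the retinol uptake receptor (651 to 431). *Rbp4*, the secreted retinol carrier, was higher (50.5 to 87.1), and it lost its call in 9 of 17 alternatives. Among 6 RA receptors *Rarb*, a known RA-induced gene, was lower (620 ± 19.8 to 308 ± 34.3), and *Rxra*, the most abundant, had a difference of 0.02 (limma adjusted p = 0.926). Of the 3 RA degrading enzymes *Cyp26b1* was lower (177 to 88.7), although its groups overlapped and 7 of 17 alternatives took it above 0.05, and *Cyp26c1* had 396 normalized counts in *Rdh10* KO replicate 1 and 79.0 to 155 in the other 5 libraries. Without *Rdh10* KO replicate 1 the log2 fold change moved from −1.18 to −1.68 for *Cyp26b1*, from −1.32 to −1.72 for *Akr1b8* and from 0.59 to 0.04 for *Cyp26c1*. Leaving out *Rdh10* KO replicate 2 instead gave −0.79 for *Cyp26b1* (limma adjusted p = 0.121) and −0.87 for *Akr1b8* (limma adjusted p = 0.0165). With limma without trend *Dhrs4*, *Akr1b3*, *Akr1b8*, *Crabp1* and *Crabp2* lost their calls (adjusted p 0.0523 to 0.162), and *Akr1b8* also lost its call without wild-type replicate 2.

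**Figure D4:**
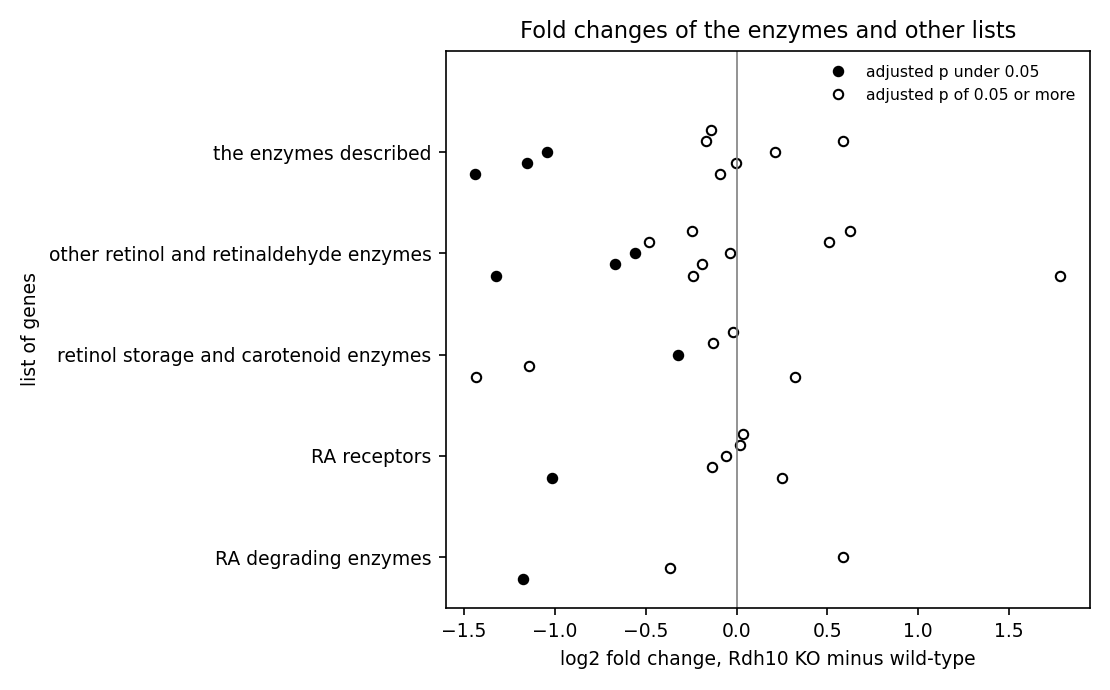
Log2 fold change, *Rdh10* KO minus wild-type, of the 9 enzymes and of the genes in 4 other lists of retinoid enzymes and receptors, for tested genes with more than 3 reads in at least 1 library of each group; filled circles have a limma adjusted p under 0.05. The list of retinoid binding and transport, which holds lower genes (*Crabp1*, *Crabp2*, *Fabp5*, *Stra6*) and the higher gene *Rbp4*, is not drawn.

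The genes whose log2 values were most like those of 4 of the enzymes over the 6 libraries were read from 11211 genes with a mean of at least 100, as a description. They were *Zcchc17*, *Recql* and *Ppdpf* for *Rdh10* (Pearson r 0.997 each), and *Pdss1*, *Fabp5* and *Rfc4* for *Aldh1a1* (0.999, 0.998 and 0.997). For *Dhrs3* they were *Rpl18*, *Dnajb2* and *Ppp6r1* (0.997, 0.996 and 0.994), and for *Aldh1a2*, *Zfp775*, *Mertk* and *Rdm1* (0.996, 0.988 and 0.975). The 6 libraries fall into 2 genotypes, so any gene that differs between them scores high. *Fabp5* is the only retinoid gene among these 12, a carrier that can pass RA to nuclear receptors. The likeness of *Dhrs3* to *Rpl18* is one of the pattern of log2 values over the libraries and not of the size of the difference. *Rpl18* had a mean of 16390 in wild-type and 14963 in *Rdh10* KO.

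Reads of 3 enzymes could be shared with other genes beyond the case of *Aldh1a1*. The share of 50-base words that also occur in transcripts of other genes was 1.15% for *Aldh1a3*, 0.870% for *Rdh13* and 0.291% for *Adh5*, and 0% for *Rdh10*, *Rdh11*, *Rdh14*, *Dhrs3* and *Aldh1a2*. *Rdh13* overlaps the microRNA gene *Gm24605* on the same strand by 96 exonic bases. *Aldh1a1* overlaps *C730002L08Rik* and *Gm6684*, and *Aldh1a2* overlaps *Gm48124*, on the opposite strand and with no exonic base in common.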

How the data were processed

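RNA-seq of 6 libraries was analysed, 3 wild-type and 3 *Rdh10* KO, each from 3 pooled embryos. The authors used directional, poly(A)-selected libraries and TopHat with mm10, and their methods name FPKM. The deposited signal, a normalized value per gene and library, is instead reads divided by 1 median-of-ratios size factor per library (0.850 to 1.40), not by gene length; FPKM had been assumed, and the planned test was kept. Whole reads were recovered for 100% of values within a tolerance of 0.1 reads. 1 line without a gene name was left out (0% of the summed values).

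log2(value + 0.1) of the 22921 genes with a mean above 0.5 was tested with limma 3.58.1 (intensity trend, R 4.3.3) and Benjamini–Hochberg adjustment. For genes with values at or near 0, fold changes on this scale can differ from the ratio of group means in size and in sign. Thresholds were an adjusted p under 0.05, alone or with a log2 fold change beyond 0.85. Single genes had exact two-sided permutation tests (scipy 1.17.1). The members and lists were chosen with earlier results of these data known. On the recovered reads, edgeR 4.0.16 called 2190 genes lower and 2608 higher (quasi-likelihood), or 2240 and 2738 (likelihood ratio), and DESeq2 1.42.0 called 2242 and 2461. Alternatives were 17: pseudocounts of 1 and 0.01, no filter or a mean above 10, median scaling, quantile normalization, limma without trend, a replicate block, the 3 count tests and 6 fits without 1 library. The fitting code was tested on simulated data. Exon lengths, positions and transcripts came from GENCODE mouse release 21 (99.4% of identifiers matched), and upstream windows from RefSeq, GRCm38.p6. Genes named are the 9 enzymes, the 3 genes most like 4 of the enzymes, genes that overlap an enzyme, and the endothelium list. From the retinoid lists and the lists of optic tissue, genes named are those with an adjusted p under 0.05 or the highest values.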

Additional observations from a re-analysis of the deposited data

How the results depend on the processing

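*Rdh10*, *Aldh1a1*, *Aldh1a2*, *Aldh1a3* and *Rdh13* kept their direction and their side of the threshold in all 17 alternatives. Adjusted p-values ranged from 2.38e-12 to 0.0331 for *Rdh10* and from 1.19e-19 to 0.0192 for *Aldh1a1*, each over limma, edgeR and DESeq2. *Dhrs3* ranged from 0.00192 to 0.167 and lost its call with limma without trend (log2 fold change −1.04) and in 4 of 6 fits without 1 library, in which its log2 fold change ran from −1.34 to −0.68. *Adh5* was called only with median scaling (−0.26), and *Rdh11* only without *Rdh10* KO replicate 3, where 1 enzyme was higher instead of 0 (its difference ran from 0.13 to 0.30 with 1 library left out). *Rdh14* changed sign with edgeR's quasi-likelihood (0.00131) and likelihood ratio test (0.000553) and without single libraries (−0.0692 to 0.0749), and *Rxra* with median scaling (−0.0692) and without single libraries (−0.0344 to 0.0732); none of these passed the threshold. The cause was not tested. Over all genes, limma called 2091 lower and 2360 higher. Without trend it called 197 and 448 (118 and 294 beyond 0.85, against 203 and 552), and edgeR's likelihood ratio test called 343 lower beyond 0.85. Without 1 library, 992 to 2068 genes were lower and 1491 to 2139 higher, with 104 to 236 lower beyond 0.85. Median scaling, which shifts the median of all genes to −0.08, turned the split to 3033 lower and 1709 higher. Libraries of the same number did not deviate together (r = −0.0258, −0.0345 and −0.0741 over 15272 genes). The labels do not say whether the numbers pair the libraries, and with 3 libraries in a group these values cannot exclude it. With a replicate block 1387 genes were lower and 1715 higher, *Dhrs3* had an adjusted p of 0.0446 with limma, and no enzyme changed its side of the threshold. *Aldh1a2* had the lowest depth of the 9 enzymes, 18 to 51 reads a library.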
